A study of Mus musculus with 14 samples.

Results

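Mammary gland next to MMTV-neu tumors was compared with wild-type mammary gland across all probe sets of an oligonucleotide array. The comparison holds 7 of the 14 arrays of the series: 4 arrays titled as adjacent neu gland (glands 23, 25, 49 and 51) and 3 titled as wild-type (pools 40, 41 and 42), taken by their titles. Of 12488 probe sets on the array 8616 passed a filter on dim signals and were tested, and they stood for 6397 named genes. The series profiled tumors, preneoplastic gland and wild-type gland of mice to find early events of tumor formation driven by the neu oncogene, and its other arrays measured 5 tumors and 2 further tumors labelled as set B.

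The adjacent glands came from MMTV-neu transgenic mice, which carry neu under a mouse mammary tumor virus promoter that is active mainly in mammary epithelium, and the labels describe them as preneoplastic tissue that surrounded a tumor. Neither the strain nor the age of these glands is given in the labels, and nothing there says that each gland came from a mouse of its own. Wild-type RNA was pooled from 5 mice per array. Pool 40 came from mice 31 weeks old of 87.5% FVB and 12.5% CF-1 background, and pools 41 and 42 from mice 41 weeks old of 97% FVB and 3% CF-1 background. The labels call the wild-type glands age-matched. A pool of 5 mice averages over animals and a gland may be a single animal. The p-values here cover no more than the spread among arrays, estimated over all 14 arrays with the tumors. The transgene's own receptor is not analysed here.

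The mammary gland is a tree of epithelial ducts set in a pad of fat. Luminal cells line the ducts and, in pregnancy and lactation, form alveoli that make milk proteins and milk fat, while basal cells around them contract. Fat cells, fibroblasts, vessels and immune cells make up the rest of the pad, and skin muscle and brown fat can lie beside it. In such bulk tissue, fewer cells of a type and less RNA per cell of that type cannot be told apart.

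Each value is an intensity on a linear scale, and values under 101 (101.42, the floor) were set to that floor before log2 was taken. On the first principal component of the log2 values the adjacent glands lay at 23.1 to 43.4 and the wild-type pools at 56.5 to 65.7. On the second, gland 25 stood apart at 59.1, where the other 6 arrays of the comparison lay between -21.5 and 19.0. The adjacent glands came from 2 array lots given in the labels: glands 23 and 25 from lot 2001815, with no wild-type pool, and glands 49 and 51 from lot 2004907, with pool 40. Pools 41 and 42 shared lot 2003877. Medians of the 7 arrays ran from 593 to 784, and 1.76% of their tested values were at the floor. The log2 ratio of 3' to 5' signal for actin was 0.38 to 1.52 in adjacent glands and 0.90 to 1.51 in wild-type pools. That of Gapdh was -0.27 to 0.27 and 0.11 to 1.48. Pool 42 had the highest ratio of the pools for both, and its Gapdh ratio of 1.48 stood against 0.17 and 0.11 in pools 40 and 41. Leaving out pool 42 also lost the most calls, as given below, and the part of its RNA ends in this was not tested. Glands 23 and 25 also differed from glands 49 and 51 in muscle and brown fat transcripts, which are given with those genes below. In what follows, values of adjacent gland are listed for glands 23, 25, 49 and 51 and values of wild-type gland for pools 40, 41 and 42, in that order.

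Few single genes were called between adjacent and wild-type gland, which does not show that the other genes were equal. Of the 6397 genes tested, 80 (1.25%) were called at an adjusted p under 0.05 in limma, of which 50 (0.782%) rose and 30 (0.469%) fell. By probe set, 101 of 8616 (1.17%) were called, 62 (0.72%) higher and 39 (0.453%) lower in adjacent gland, where 1273 had an unadjusted p under 0.05. The calls changed at least 2-fold in 96 of the 101 probe sets. In 97 of them every adjacent gland lay on 1 side of every wild-type pool, and the other 4 were both probe sets of Csrp1 and those of Tmed9 and Ank3. Over all genes tested, the arrays of the 2 groups did not overlap in 479 genes that were above in adjacent gland (7.49%) and 483 that were below (7.55%).

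The calls depended on single arrays. Of the 80 genes, 6 were called with each of the 7 arrays left out in turn: Acsl4, Cd82, Cyp2e1, Dsg2, Plet1 and Wfdc18. Leaving out pool 42, 41 or 40 lost 70, 61 and 47 of the 80 calls, and leaving out gland 49, 23, 25 or 51 lost 53, 21, 20 and 9. In no such fit did a called gene change direction, which had to hold wherever the 2 groups do not overlap. A fit on the 7 arrays alone, without the tumors in the estimate of the spread, called 28 probe sets and kept 18 of the 80 genes. With array lot as a fixed block, where the contrast rests on glands 49 and 51 against pool 40, 56 of 8616 probe sets were called (0.65%). Of the 80 genes 16 stayed called, and all 80 kept their direction. Where the groups do not overlap, a direction kept in this block was also fixed in advance. The lot number of tumors 50 and 52, 2004097, differs from 2004907 by the order of 2 digits. Read as 1 lot with it, which brings glands 23 and 25 into the contrast by way of the tumors, 26 probe sets and 9 of the 80 genes were called. With pool 40 alone as the wild-type, 3 probe sets were called. Beside an adjusted p, those of the fits without 1 array follow where the call was lost in them. Centring each array on its median lowered the median log2 difference of all probe sets from 0.07 to -0.10, and the share of higher calls among all calls went from 61.4% to 34.1%.

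Of the 5 rises that were called with every array left out in turn, 4 belong to genes of cell surfaces or secretion. Plet1 encodes a surface protein found on progenitor cells of several epithelia. Its intensity was 15150.1, 17183, 28628 and 29688 in the adjacent glands and 6361, 5918 and 3702 in the wild-type pools. All 4 glands lay above all pools, and glands 49 and 51 stood above glands 23 and 25. The log2 difference was 2.06 ± 0.30 (SE, n = 4 and 3, adjusted p = 0.00515). Wfdc18 encodes a secreted protein with the core domain of whey acidic protein. It read 49701, 56194, 84000.3 and 62622 in adjacent gland against 20545, 21979 and 22125 in the pools, which lay close together, and it rose by 1.52 ± 0.22 (adjusted p = 0.00515).

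Cd82, a tetraspanin known as a suppressor of metastasis, read 5110.5, 6109, 6764 and 6877 in adjacent gland and 2110.3, 3038 and 2071 in the pools. The glands lay within a narrow range and did not overlap the pools. Cd82 rose by 1.38 ± 0.19 (adjusted p = 0.00453). A dimmer probe set of Cd82 differed by 0.91 and was not called (adjusted p = 0.466). Dsg2, a cadherin of the desmosomes that join epithelial cells, read 2345, 2071, 2136 and 1915 against 986, 679 and 509. The 4 glands were alike in Dsg2, and every pool was under all of them. It rose by 1.60 ± 0.21 (adjusted p = 0.00288). Acsl4, a ligase that activates arachidonic acid, read 7581, 4478, 10268 and 4172 against 1293, 1038 and 852. Glands 23 and 49 were higher than glands 25 and 51, and all were above the pools. Among the 80 genes Acsl4 had the smallest adjusted p (log2 difference 2.56 ± 0.28, adjusted p = 0.001). Cd82, Dsg2 and Wfdc18 lie outside the rule for genes to name and were chosen after their values were seen.

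**Figure D1:**
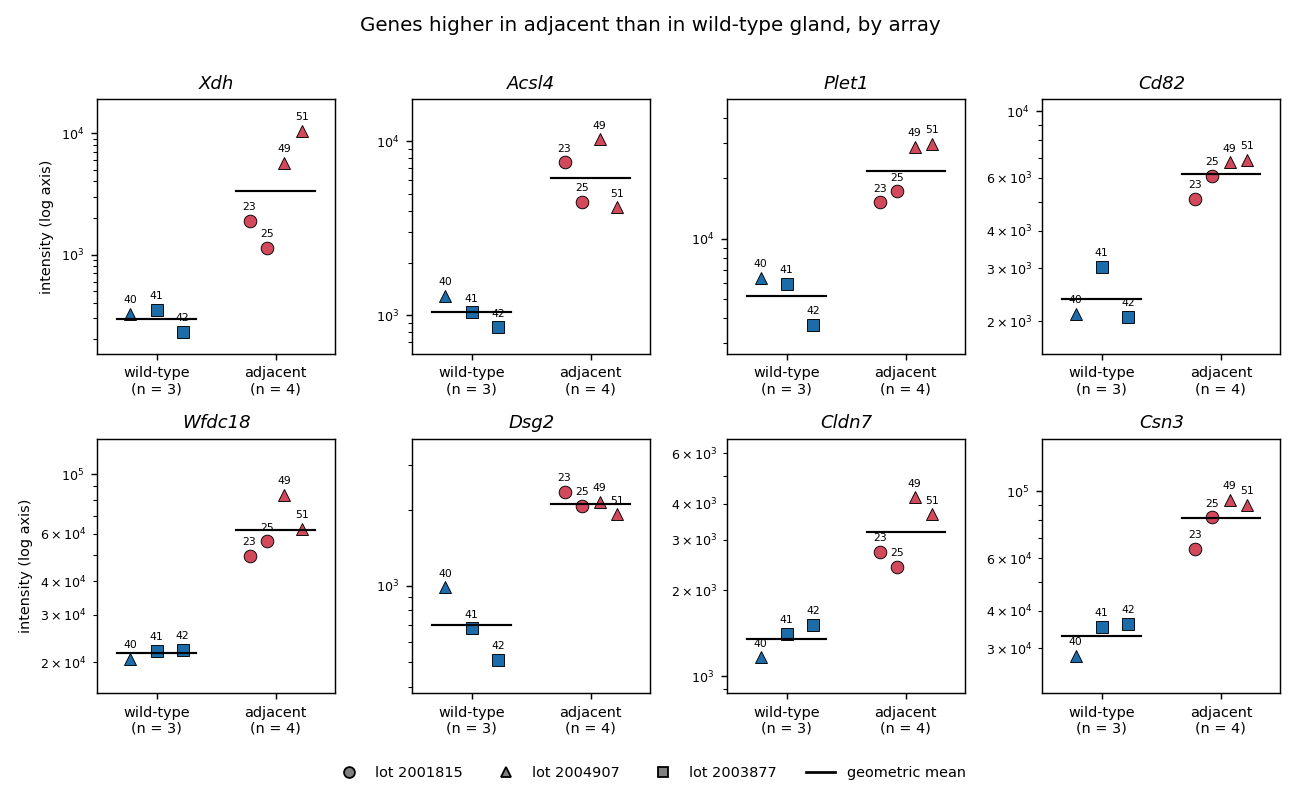
Intensity on a log axis of 8 genes higher in adjacent gland (red, 4 glands) than in wild-type gland (blue, 3 pools), 1 panel per gene, with the number of each array beside its point, the shape giving the array lot and the bar the geometric mean. Every gland lies above every pool in all 8 panels, and Xdh spreads most among the glands, from 1128 in gland 25 to 10422 in gland 51.

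Genes of luminal epithelium were mostly above wild-type level, but few were called. Of 26 luminal genes tested 2 rose and none fell, where 1.25% of all genes were called. The log2 difference was above 0 in 24 of the 26, with a median of 0.68 against 0.05 over all genes tested, and all 4 glands lay above all 3 pools in 8 of them, as they did in 7.49% of all genes. Cldn7, a claudin of tight junctions, read 2725, 2417, 4215 and 3675 against 1163, 1405 and 1509.7. Glands 49 and 51 were the highest, and no gland overlapped the pools. It rose by 1.23 ± 0.23 (adjusted p = 0.0169, or 0.0571 to 0.0744 without pool 40, 41 or 42 or gland 49). Ehf, an ETS transcription factor of epithelia, read 635, 800.4, 1309.8 and 1026 against 462, 310.0 and 237 and rose by 1.49 ± 0.33 (adjusted p = 0.0421, or 0.0542 to 0.233 without pool 41 or 42 or gland 49 or 51).

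The defining luminal markers were not called. Epcam, an adhesion molecule of epithelial cells, read 5541, 3717, 5462 and 2482 in adjacent gland and 2710.1, 1622 and 1827 in the pools, so that gland 51 lay under pool 40. Its log2 difference was 1.03 ± 0.27 (adjusted p = 0.0734). Krt18, a keratin of simple epithelia, read 17619, 8849, 22408 and 13719.5 against 12094, 8833 and 10004, with gland 25 among the pools (0.53 ± 0.32, adjusted p = 0.457). The lipocalin gene Lcn2, a secreted iron scavenger, read 45491, 15716, 41051 and 20448 against 10222, 12618 and 13202. All glands were above all pools in Lcn2, yet its difference of 1.22 ± 0.31 was not called (adjusted p = 0.0684). The summed intensity of the 26 luminal genes was 129573 to 199775 in adjacent glands and 101299 to 108740 in wild-type pools, and the part of this sum in the results on epithelial genes was not tested.

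Further genes that rose lost the call without 1 or more arrays. Tspan8, another tetraspanin, read 1731, 788, 3876 and 487 against 362, 288 and 280.2. Gland 49 was far above gland 51, which was the closest to the pools, and the log2 difference was 2.04 ± 0.47 (adjusted p = 0.0488, or 0.0728 to 0.215 without pool 40, 41 or 42 or gland 23 or 49). Kcnn4, a potassium channel opened by calcium, read 11074, 6585, 23892 and 8302 against 3401, 3107 and 2704. It rose by 1.84 ± 0.34 (adjusted p = 0.0157, or 0.0712 to 0.0923 without pool 41 or 42). Syne4, a nesprin that ties the nucleus of secretory epithelial cells to motor proteins, read 1397, 1677, 2080 and 1426 against 725, 550.4 and 335 and rose by 1.67 ± 0.28 (adjusted p = 0.0118, or 0.0723 without pool 42). Trim46, a microtubule-associated protein, read 1851, 1896, 2399 and 1875 against 498, 679 and 363. Glands 23, 25 and 51 were nearly equal and gland 49 lay above them, and Trim46 rose 4.01-fold (adjusted p = 0.0118, or 0.0731 without pool 42).

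The Tpd52 family of vesicle trafficking proteins had 2 members among the rises. Tpd52 read 2073, 1976, 2624 and 3465 against 1194, 1159 and 954 and rose by 1.17 ± 0.23 (adjusted p = 0.023, or 0.0603 to 0.139 without pool 40, 41 or 42 or gland 49). Its relative Tpd52l1 read 1505, 641, 2019.6 and 836 against 628, 277 and 319. Gland 25 was only just above pool 40, and Tpd52l1 rose by 1.57 ± 0.36 (adjusted p = 0.0459, or 0.0998 to 0.233 without pool 41 or 42 or gland 23 or 49). Kcnn4, Syne4 and Tpd52 were chosen after their values were seen.

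Milk genes were uneven. Among 19 genes for milk protein and its secretion, 3 rose and none fell, where 0.782% of all genes rose. The log2 difference was above 0 in 17 of the 19, with a median of 1.30. Csn3, the casein that stabilises milk micelles, read 64243, 81870.4, 93792 and 90268 in adjacent gland and 28269.7, 35406 and 36274 in the pools. The glands did not overlap the pools, and the spread among glands was small beside the gap. It rose by 1.30 ± 0.28 (adjusted p = 0.0341, or 0.0887 to 0.113 without pool 40, 41 or 42 or gland 49). Folr1, a folate receptor, read 4367, 5768, 4276 and 10830 against 2071, 2708 and 1869.7. Gland 51 was the highest, and Folr1 rose by 1.42 ± 0.33 (adjusted p = 0.0473, or 0.0554 to 0.234 without pool 40, 41 or 42 or gland 25, 49 or 51). Xdh, an oxidoreductase needed to enclose milk fat globules, read 1891, 1128, 5662 and 10422 against 326, 348 and 231. Glands 49 and 51 stood at several times the level of glands 23 and 25, all above the pools, and the log2 difference was 3.49 ± 0.63 (adjusted p = 0.0153, or 0.0506 to 0.0871 without pool 41 or 42 or gland 49).

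Other milk proteins varied more among glands than between the groups. Csn2, the beta-casein gene, read 35178, 113073, 42124 and 80102 in adjacent gland and 41476, 43308 and 61736 in the pools, so the groups overlapped (0.33 ± 0.66, adjusted p = 0.846). Wap, which encodes whey acidic protein, read 2195, 36460.2, 7228 and 56349.7 against 542, 5926 and 2695. Glands 25 and 51 were far above the pools, while gland 23 lay within their range, and the log2 difference of 2.71 ± 1.16 was not called (adjusted p = 0.284). Lalba, the lactose synthase subunit of milk, read 8069, 3958, 48423 and 65313 against 3138, 5805 and 2609.5. High values of Lalba were in glands 49 and 51, not in the pair high in Wap, and its difference was 2.30 ± 0.93 (adjusted p = 0.262). Glycam1, a mucin of milk, was at 2651, 11102, 13051 and 82035 against 1511, 3303 and 1806, with gland 51 highest (2.68 ± 1.32, adjusted p = 0.358).

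Genes that fold and export secreted proteins held 2 calls. In a list of 26 genes for folding in the endoplasmic reticulum and its stress response, 2 rose and none fell, where 0.782% of all genes rose. The list had a median of 0.23. P4hb, the classic protein disulfide isomerase, read 5493, 5968, 5699 and 5998 against 2298, 1144 and 3052. The glands were almost equal, and the pools spread more than the glands. It rose by 1.53 ± 0.28 (adjusted p = 0.0153, or 0.0712 without pool 41). Its relative Pdia4 read 3525, 2479, 4094 and 4199 against 1776, 1968 and 2096 and rose by 0.85 ± 0.19 (adjusted p = 0.0462, or 0.0649 to 0.162 without pool 40, 41 or 42 or gland 23, 49 or 51). Pdia3, another isomerase, read 8611, 9350.3, 6201 and 5946 against 3084, 4136 and 2789. No gland overlapped the pools, but its difference of 1.17 ± 0.28 missed the threshold (adjusted p = 0.0525).

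The folding sensor genes gave no call. The chaperone gene Hspa5 differed by 0.35 ± 0.22 (adjusted p = 0.484), the transcription factor gene Xbp1 by 0.57 ± 0.18 (adjusted p = 0.149) and the stress factor gene Ddit3 by -0.51 ± 0.46 (adjusted p = 0.643). Outside the list, Serp1, which stabilises membrane proteins in the endoplasmic reticulum, read 10062, 13022, 11075 and 13707 against 6934, 6696 and 5865 and rose by 0.87 ± 0.16 (adjusted p = 0.0157, or 0.0712 to 0.108 without pool 41 or 42). Tmed9, a cargo receptor between the endoplasmic reticulum and the Golgi, read 1785, 3232, 3275 and 4389 against 906, 1960.5 and 656. Gland 23 lay under pool 41 in Tmed9, which rose by 1.52 ± 0.35 (adjusted p = 0.0469, or 0.0678 to 0.261 without pool 40 or 42 or gland 25, 49 or 51). Serp1 and Tmed9 were chosen after their values were seen.

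Among 19 ligands, partners and feedback regulators of ErbB receptors, 1 rose and none fell, where 0.782% of all genes rose. Their median log2 difference was 0.44. Dok1, an adaptor that dampens tyrosine kinase signaling, read 969, 949.8, 1784 and 986 in adjacent gland and 101, 531 and 179.6 in the pools. Pool 40 was at the floor, so the rise of Dok1 by 2.40 ± 0.45 is a lower bound (adjusted p = 0.0157, or 0.0571 to 0.0923 without pool 40 or 42 or gland 49). Dusp6, a phosphatase of ERK kinases, read 9668, 2528, 15427 and 4451 against 1989, 2474 and 2507. All glands were above all pools in Dusp6, gland 25 by very little, and the difference of 1.47 ± 0.42 was not called (adjusted p = 0.1). Errfi1, a feedback inhibitor of ErbB receptors, differed by 0.67 ± 0.23 (adjusted p = 0.181). The receptor gene Erbb3 differed by 0.67 ± 0.31 (adjusted p = 0.323), and the ligand gene Egf by 1.19 ± 0.82 (adjusted p = 0.525).

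Further regulators that rose came from several pathways. Id2, a helix-loop-helix inhibitor needed for alveolar growth, was the 1 call among 25 genes of the TGF-beta pathway, against 1.25% of all genes. It read 12299, 14218, 11069 and 15394 against 6749, 5056 and 4210.4, with every gland well above every pool, and rose by 1.33 ± 0.24 (adjusted p = 0.0153, or 0.0712 to 0.0923 without pool 41 or 42). Ptk7, a receptor-like pseudokinase of planar cell polarity, read 1271, 1047, 626 and 1039.6 against 216, 392 and 74.8. Pool 42 was under the floor, and Ptk7 rose by at least 2.24 ± 0.38 (adjusted p = 0.0118, or 0.0623 without pool 42). Sox4, a transcription factor of progenitor cells, read 3382, 3307, 5056 and 4008 against 2029, 1689 and 2018 and rose by 1.03 ± 0.20 (adjusted p = 0.0209, or 0.0603 to 0.118 without pool 40, 41 or 42 or gland 49). It was chosen after its values were seen.

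Cxcl1, a chemokine for neutrophils, was the 1 call among 20 chemokines and receptors, against 1.25% of all genes. It read 804, 830.5, 670.2 and 548 against 53.3, 221 and 263, with pool 40 under the floor, and rose by at least 1.96 ± 0.35 (adjusted p = 0.0153, or 0.0568 without pool 40). Bak1, which opens mitochondria in apoptosis, read 1797, 2200.5, 3054 and 3581 against 770.5, 1186 and 985. Its level was higher in glands 49 and 51 than in glands 23 and 25, and it rose by 1.41 ± 0.26 (adjusted p = 0.0153, or 0.0515 to 0.0752 without pool 40 or 42 or gland 49). Prep, a peptidase that cuts after proline, was under the floor in every pool and read 461, 518, 598 and 325 in the glands, at least 4.57-fold higher (adjusted p = 0.0402, or 0.0626 to 0.145 without pool 40, 41 or 42 or gland 23, 25 or 49). Bak1 was chosen after its values were seen.

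Enzymes of carbon dioxide and lysine metabolism and a collagen were among the larger rises. Of 7 carbonic anhydrases 2 rose and none fell, where 0.782% of all genes rose. The secreted carbonic anhydrase gene Car6 read 1378, 1167, 2123 and 611 against 48.0, 74.5 and 289, with pools 40 and 41 under the floor, and rose by at least 3.06 ± 0.60 (adjusted p = 0.0209, or 0.0714 to 0.114 without pool 40 or 41 or gland 49). The membrane-bound Car12 read 2484, 468, 2106 and 997 against 235, 248 and 286. Glands 23 and 49 were the highest, and Car12 rose by 2.29 ± 0.48 (adjusted p = 0.0335, or 0.0689 to 0.118 without pool 40, 41 or 42 or gland 23 or 49). Aass, an enzyme of lysine breakdown, read 1006, 836, 2129 and 1071 against 390.3, 234 and 318 and rose by 1.94 ± 0.34 (adjusted p = 0.0143, or 0.0731 to 0.0743 without pool 41 or 42). Col9a1, a collagen known from cartilage, read 6793, 3808, 8730.2 and 3095 against 1129, 1106 and 864. The same glands 23 and 49 were high, as they were in Acsl4 and Tspan8, and Col9a1 rose by 2.33 ± 0.38 (adjusted p = 0.0114, or 0.0723 without pool 42).

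Of the 30 genes that fell, Cyp2e1 was the 1 called with every array left out in turn. Cyp2e1, a cytochrome of the endoplasmic reticulum, read 13491, 21351, 9962 and 12437 in adjacent gland and 45994, 34740.4 and 48407 in the pools. Gland 25 was the highest gland and still under every pool. Cyp2e1 fell by 1.63 ± 0.24 on the log2 scale (adjusted p = 0.00515). Ces1d, a carboxylesterase of fat cells and liver, read 9126, 4790.3, 9163 and 9944 against 24383, 21995 and 27536. Gland 25 was the lowest, and Ces1d fell by 1.63 ± 0.24 (adjusted p = 0.00554, or 0.0598 without pool 42). Ghr, the growth hormone receptor, read 3499, 2418, 2206 and 4757 against 8759, 9831 and 9793. The pools were nearly equal, and Ghr fell by 1.62 ± 0.28 (adjusted p = 0.0124, or 0.0598 to 0.0731 without pool 41 or 42).

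Cavin1, a coat protein of the caveolae abundant in fat cells, read 13666, 6819.9, 6069 and 10335 against 23429.6, 27197 and 28480.5 and fell by 1.59 ± 0.26 (adjusted p = 0.0104, or 0.0663 without pool 42). Another probe set of Cavin1 differed in the opposite direction and was not called. Hsd11b1, which regenerates active glucocorticoid in fat and liver, read 3107, 2438, 3385 and 6391 against 7886, 10219.6 and 10920.1. Gland 51 was the closest to the pools, and Hsd11b1 fell by 1.42 ± 0.30 (adjusted p = 0.0341, or 0.0609 to 0.195 without pool 40, 41 or 42 or gland 23, 25 or 49). Gpam, the first enzyme of triacylglycerol synthesis, read 4947, 5372, 3343 and 5384 against 11051, 10639 and 11561. Gland 49 was the lowest, and Gpam fell by 1.24 ± 0.23 (adjusted p = 0.0153, or 0.0559 to 0.0865 without pool 40, 41 or 42). It was chosen after its values were seen.

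**Figure D2:**
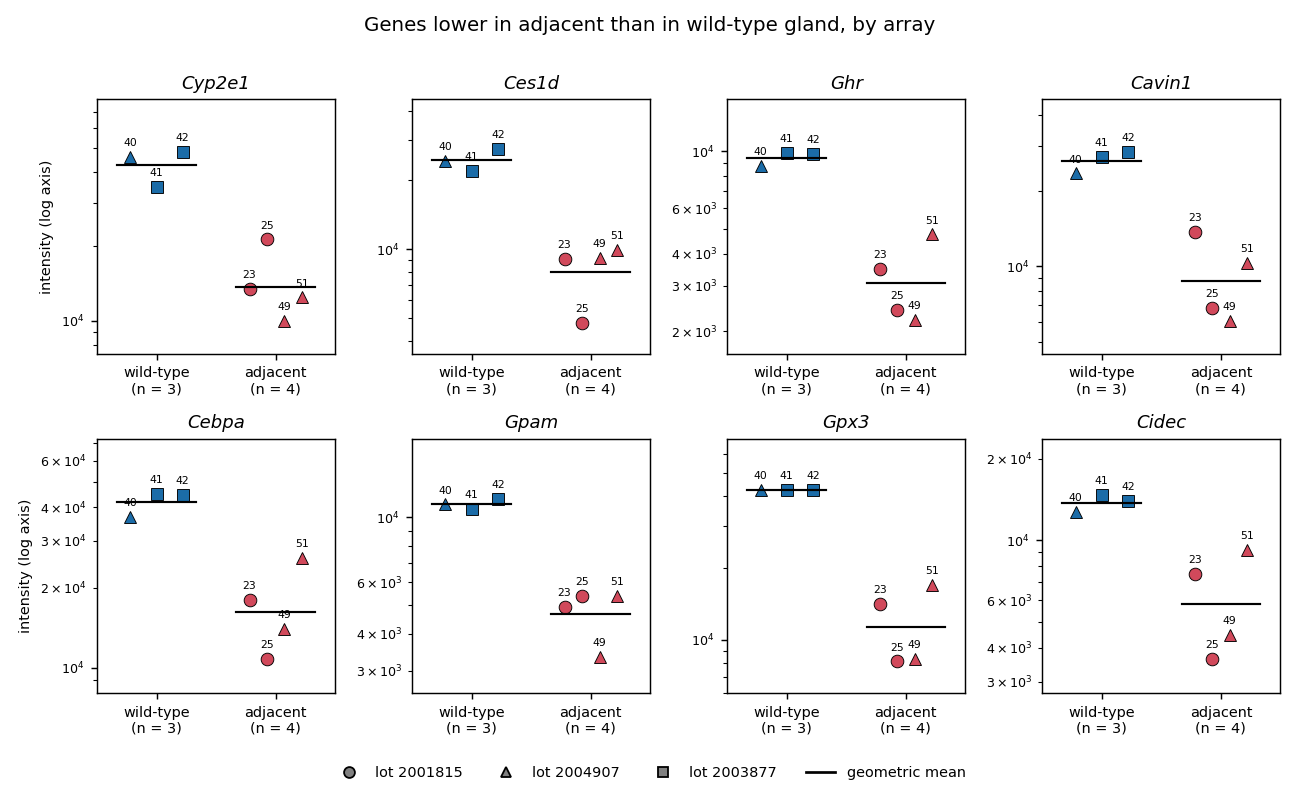
Intensity on a log axis of 8 genes lower in adjacent gland (red, 4 glands) than in wild-type gland (blue, 3 pools), drawn as for the genes that rose, with the shape giving the array lot and the bar the geometric mean. Every gland lies below every pool in all 8 panels, and the pools lie closer together than the glands.

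Of 24 white adipocyte genes tested 2 fell and none rose, where 0.469% of all genes fell. The log2 difference was below 0 in 23 of the 24, with a median of -0.93, and all glands lay under all pools in 12, as they did in 7.55% of all genes. Cebpa, a transcription factor that drives fat cell differentiation, read 17986, 10763, 13944 and 25782 against 36839.5, 44934 and 44500. Gland 25 was the lowest and gland 51 the highest gland. It fell by 1.37 ± 0.30 (adjusted p = 0.0402, or 0.0577 to 0.184 without pool 40, 41 or 42 or gland 23, 25 or 49). Cidec, which joins lipid droplets, read 7478, 3649, 4478 and 9231 against 12703, 14686 and 13949, with the same order of glands 25 and 51, and fell by 1.25 ± 0.28 (adjusted p = 0.0449, or 0.0512 to 0.214 without pool 40, 41 or 42 or gland 23, 25 or 49). The fat cell regulator Pparg read 1771, 991, 1378 and 2323 against 3412, 3943 and 4245. All glands were lower than all pools, and its difference of -1.32 ± 0.31 just missed the threshold (adjusted p = 0.0525).

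The defining fat cell markers differed less. Adipoq, which encodes adiponectin, read 40379.8, 39127, 31979 and 45744 in adjacent gland and 65733, 59326 and 90704 in the pools, without overlap but not called (-0.86 ± 0.41, adjusted p = 0.346). Retn, the hormone resistin, read 17179, 14831, 14096 and 35396 against 27325, 34516 and 47509.8, and gland 51 lay above pools 40 and 41 (-0.91 ± 0.46, adjusted p = 0.369). Fabp4, a fatty acid carrier, overlapped fully, at 3387, 4081, 1883 and 2299 against 3423, 2398 and 3892 (-0.19 ± 0.29, adjusted p = 0.798). The summed intensity of the 24 genes was 340452 to 551689 in adjacent glands and 561663 to 799048 in the pools, and its part in these differences was not tested.

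Falls outside that list included enzymes of mitochondria and peroxisomes. Echs1, which hydrates the chain in mitochondrial fatty acid oxidation, read 2909, 2588, 3536 and 6099.8 against 8837, 10545 and 11619 and fell by 1.52 ± 0.26 (adjusted p = 0.0118, or 0.0536 to 0.0731 without pool 41 or 42). Abcd2, a peroxisomal importer of fatty acids, read 1102, 729.6, 853 and 2282 against 3119, 4487 and 2879 and fell by 1.62 ± 0.36 (adjusted p = 0.0442, or 0.0793 to 0.208 without pool 40, 41 or 42 or gland 23, 25 or 49). Etfb, which passes electrons from fatty acid oxidation to the respiratory chain, read 6373, 5815, 6559 and 9468 against 12927, 13749 and 15489. The glands were close together, gland 51 excepted, and Etfb fell by 1.02 ± 0.19 (adjusted p = 0.0184, or 0.0571 to 0.118 without pool 41 or 42 or gland 49). Gstz1, an enzyme of tyrosine breakdown, read 14234, 10750.5, 13655 and 13728 against 25844, 28653 and 28815 and fell by 1.09 ± 0.17 (adjusted p = 0.00818, or 0.0579 without pool 42). Etfb and Gstz1 were chosen after their values were seen, and another probe set of Etfb differed in the opposite direction without being called.

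Oxidative phosphorylation genes gave no call, and 38 of 43 tested had a log2 difference below 0, with a median of -0.44. All glands lay under all pools in 8 of the 43, against 7.55% of all genes. Within lot 2004907 this median was -0.09. The succinate dehydrogenase genes Sdha, Sdhb, Sdhc and Sdhd differed by -0.91, -0.73, -0.69 and -0.68 with adjusted p of 0.125, 0.166, 0.103 and 0.188. Of 31 antioxidant enzymes 1 fell and none rose, where 0.469% of all genes fell. Gpx3, the secreted glutathione peroxidase, read 14132, 8101, 8335 and 17037 against 42665, 42612 and 42662. The pools were almost identical, glands 25 and 49 were the lowest, and Gpx3 fell by 1.92 ± 0.33 (adjusted p = 0.0136, or 0.0536 to 0.0731 without pool 41 or 42).

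Of 30 fast skeletal muscle genes tested 4 fell and none rose, where 0.469% of all genes fell. The log2 difference was below 0 in 26 of the 30, with a median of -1.73. The 4 encode Atp2a1, a calcium pump, Ryr1, the calcium release channel, and the glycolytic enzymes Pgam2 and Eno3. The 250 bases before the start of Atp2a1 (GRCm38.p6, chr7:126463074-126463323, minus strand) and of Pgam2 (chr11:5803797-5804046, minus strand) are shown because these genes fell together and both stretches hold an E-box, the motif bound by muscle and other helix-loop-helix factors. Capitals mark the motif CAGCTG, which reads the same on both strands.
Atp2a1: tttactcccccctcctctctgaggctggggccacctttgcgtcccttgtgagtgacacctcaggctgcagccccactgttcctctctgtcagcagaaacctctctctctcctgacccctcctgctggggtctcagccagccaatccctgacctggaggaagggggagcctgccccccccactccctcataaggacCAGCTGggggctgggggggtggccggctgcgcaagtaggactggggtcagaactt
Pgam2: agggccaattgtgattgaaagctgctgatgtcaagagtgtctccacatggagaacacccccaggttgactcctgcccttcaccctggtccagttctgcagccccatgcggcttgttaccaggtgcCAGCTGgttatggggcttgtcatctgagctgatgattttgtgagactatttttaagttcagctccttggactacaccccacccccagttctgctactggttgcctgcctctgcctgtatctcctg
The motif starts 55 bases before the start of Atp2a1 and 125 before that of Pgam2. The same window of Ryr1 and of Eno3 holds no match to CAGCTG. It was found in 13 of the 23 fast muscle genes with a RefSeq promoter sequence (56.5%), in 5 of 37 genes called higher (13.5%), in 5 of 26 called lower (19.2%) and in 3450 of all 27025 genes (12.8%). A match is a description of the sequence and says nothing of binding.

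Atp2a1 read 3748, 3603, 258 and 404 in adjacent gland and 22013, 11260.2 and 10669 in the pools. Glands 49 and 51 lay far under glands 23 and 25, which were themselves under every pool. Atp2a1 fell by 3.67 ± 0.83 (adjusted p = 0.0449, or 0.0655 to 0.143 without pool 40, 41 or 42 or gland 49 or 51). Pgam2 read 553, 224, 10.1 and 23.9 against 1963, 808 and 941, with glands 49 and 51 under the floor, and fell by at least 2.60 ± 0.56 (adjusted p = 0.0361, or 0.0871 to 0.136 without pool 40, 41 or 42 or gland 49). Ryr1 read 522, 442, 163 and 166 against 1711, 1179 and 965 and fell by 2.15 ± 0.46 (adjusted p = 0.0363, or 0.092 to 0.132 without pool 40, 41 or 42 or gland 49). Eno3 read 2662, 3159, 853 and 919 against 9081, 4807 and 5161 and fell by 1.92 ± 0.42 (adjusted p = 0.0399, or 0.0542 to 0.136 without pool 40, 41 or 42 or gland 49 or 51). In all 4 genes pool 40 was higher than pools 41 and 42.

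Most members of the list were not called, among them Acta1, with the largest difference of the list. Acta1, the actin of skeletal muscle, read 17373, 15564, 173 and 170.2 in adjacent gland and 41067, 22099 and 23456 in the pools. Glands 49 and 51 were close to the floor and glands 23 and 25 much nearer to the pools, and the difference of -4.05 ± 1.56 was not called (adjusted p = 0.24). Tnnt3, a troponin of fast muscle, read 1986, 2973, 169 and 18.3 against 7064, 3672 and 4465 (-3.11 ± 0.94, adjusted p = 0.117). The creatine kinase gene Ckm differed in the other direction, at 543, 988, 374 and 346 against 405, 68.8 and 140.3 (1.52 ± 0.48, adjusted p = 0.142). For the whole list, the median against wild-type was -0.78 in glands 23 and 25 and -2.77 in glands 49 and 51. The summed intensity of the list was 75926 and 84955 in glands 23 and 25, 22961 and 20360 in glands 49 and 51, and 111944 to 199738 in the pools. How far the amount of muscle in each sample carries these falls was not tested.

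**Figure D3:**
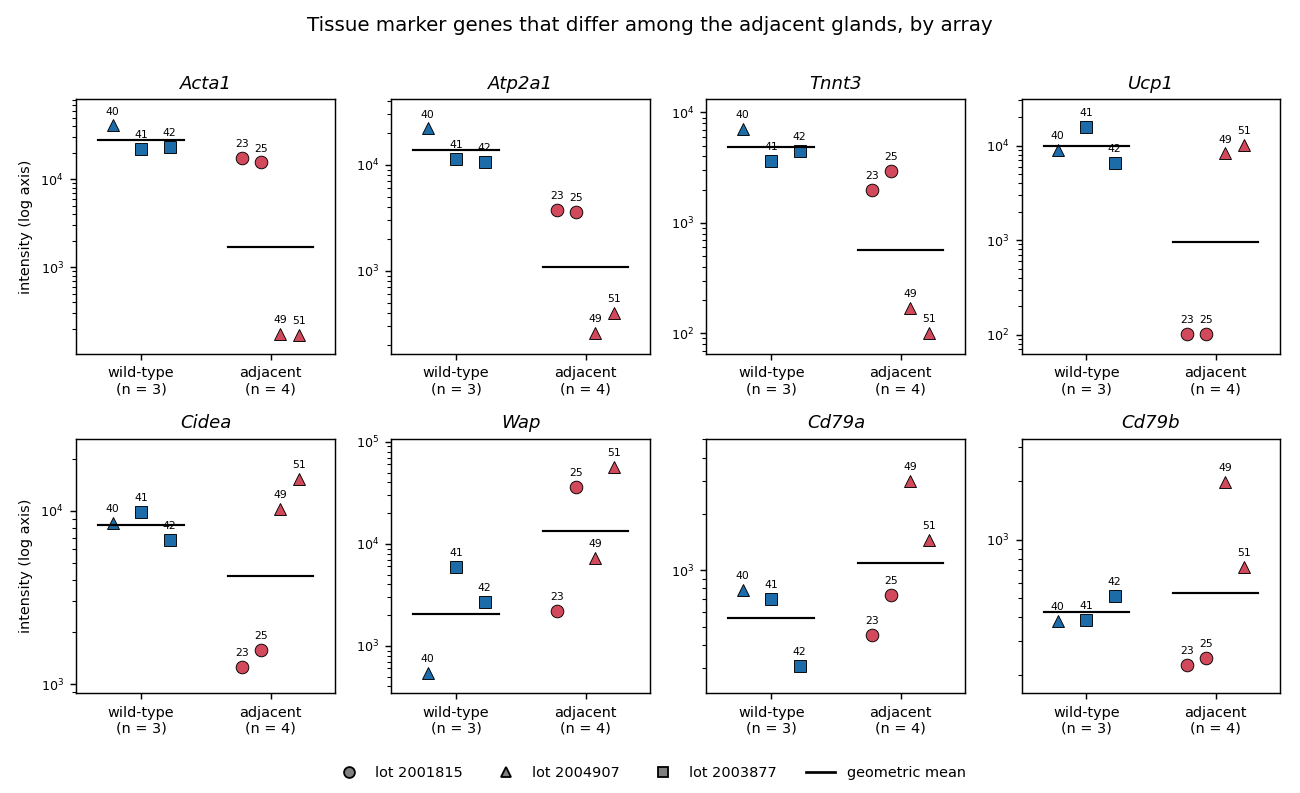
Intensity on a log axis of 8 tissue marker genes in adjacent gland (red, 4 glands) and wild-type gland (blue, 3 pools), drawn as for the genes above, with values under the floor of 101 drawn at the floor. The genes were chosen after their values were seen, to show that glands 49 and 51 are low in the muscle genes and glands 23 and 25 low in Ucp1 and Cidea.

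In Ucp1 and Cidea the same pairs of glands stood apart in the opposite sense. Ucp1, the uncoupling protein of brown fat, read 73.2, 81.3, 8266 and 10162 in adjacent gland and 9009.7, 15889.9 and 6571 in the pools. Glands 23 and 25 were under the floor, and glands 49 and 51 lay within the range of the pools. The log2 difference of -3.35 ± 1.29 was not called (adjusted p = 0.237), and within lot 2004907 it was 0.02. Cidea, a lipid droplet protein, read 1257, 1576, 10207 and 15262 against 8514, 9882 and 6757 (-0.98 ± 0.75, adjusted p = 0.564). Of 7 brown adipocyte genes none was called, and the median was -1.57 in glands 23 and 25 and 0.40 in glands 49 and 51. Their summed intensity was 5839 and 8732 in glands 23 and 25, 28725 and 52630 in glands 49 and 51, and 24393 to 40968 in the pools.

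Immune cell lists held 1 call. Of 16 genes of B and plasma cells 1 rose and none fell, where 0.782% of all genes rose. The median of these 16 was 0.70. Pax5, a transcription factor of B cells, read 287, 1009, 977 and 535 against 149, 101 and 108. Pool 41 was under the floor, and Pax5 rose by at least 2.41 ± 0.50 (adjusted p = 0.0329, or 0.0598 to 0.139 without pool 40, 41 or 42 or gland 25 or 49). The B cell receptor subunit genes Cd79a and Cd79b read 454, 738, 2991 and 1460.1 and 226, 246, 1979.7 and 723 in the glands. In the pools they read 787, 703 and 309.5 and 382, 386 and 513. Both were highest in gland 49, followed by gland 51, and neither was called (adjusted p = 0.455 and 0.845). The T cell receptor gene Cd3e, too dim to be tested, was also highest in gland 49, at 141, 258, 1502 and 593 against 235, 106 and 110.5. In order of intensity the glands thus differed between Pax5, highest in gland 25, and Cd79a and Cd79b. None of the 7 genes of T and natural killer cells was called, and all 7 had a log2 difference above 0, with a median of 0.49. The lists of 20 macrophage and dendritic cell genes, 10 MHC class II genes, 10 neutrophil and mast cell genes and 22 interferon response genes held no call and had medians of 0.22, 0.15, -0.04 and 0.23. The summed intensity of the 16 B cell genes was 13960 to 24710 in adjacent glands and 15708 to 16088 in the pools.

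By the probe set that stood for each gene, proliferation genes gave no call. Another probe set of the cyclin gene Ccnd1 was called, with every gland above every pool (1.35 ± 0.28, adjusted p = 0.0329). Of 47 cell cycle genes 42 had a log2 difference above 0, with a median of 0.36. All glands lay above all pools in 1 of the 47, against 7.49% of all genes. The median was 0.72 in glands 23 and 25 and -0.02 in glands 49 and 51. Birc5, a survival protein of mitosis, read 1129, 1914, 1362 and 1393 against 996, 854 and 762. All glands were above all pools, and the difference of 0.72 ± 0.21 was not called (adjusted p = 0.108). Rrm2, a subunit of ribonucleotide reductase, read 1252, 2556, 1877 and 696 against 1071, 604 and 741, with gland 51 under pools 40 and 42 (0.87 ± 0.34, adjusted p = 0.252).

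Basal epithelium, stroma and vessels gave no call either. The basal list of 14 genes had a median of -0.08, and Krt14 and Krt5, its defining keratins, were too dim to be tested. The list of 38 fibroblast and matrix genes had a median of 0.03. Of these, Pdgfra, a receptor of fibroblasts and fat cell precursors, read 5719, 5715, 3683 and 6214 against 12036, 9064 and 8395. All glands were under all pools, without a call (-0.89 ± 0.27, adjusted p = 0.123). Nos3, the nitric oxide synthase of endothelium, read 227, 185, 342 and 943 against 1054, 1389 and 1403 and had the smallest adjusted p of 21 endothelial genes (-1.90 ± 0.48, adjusted p = 0.0664). The endothelial median was -0.43. Of 6 genes of hormone-sensing luminal cells the median was -0.34, and Foxa1, which opens chromatin for hormone receptors, read 2426, 1847, 847 and 900.5 against 2716, 2188 and 2874 (-0.92 ± 0.39, adjusted p = 0.277).

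**Figure D4:**
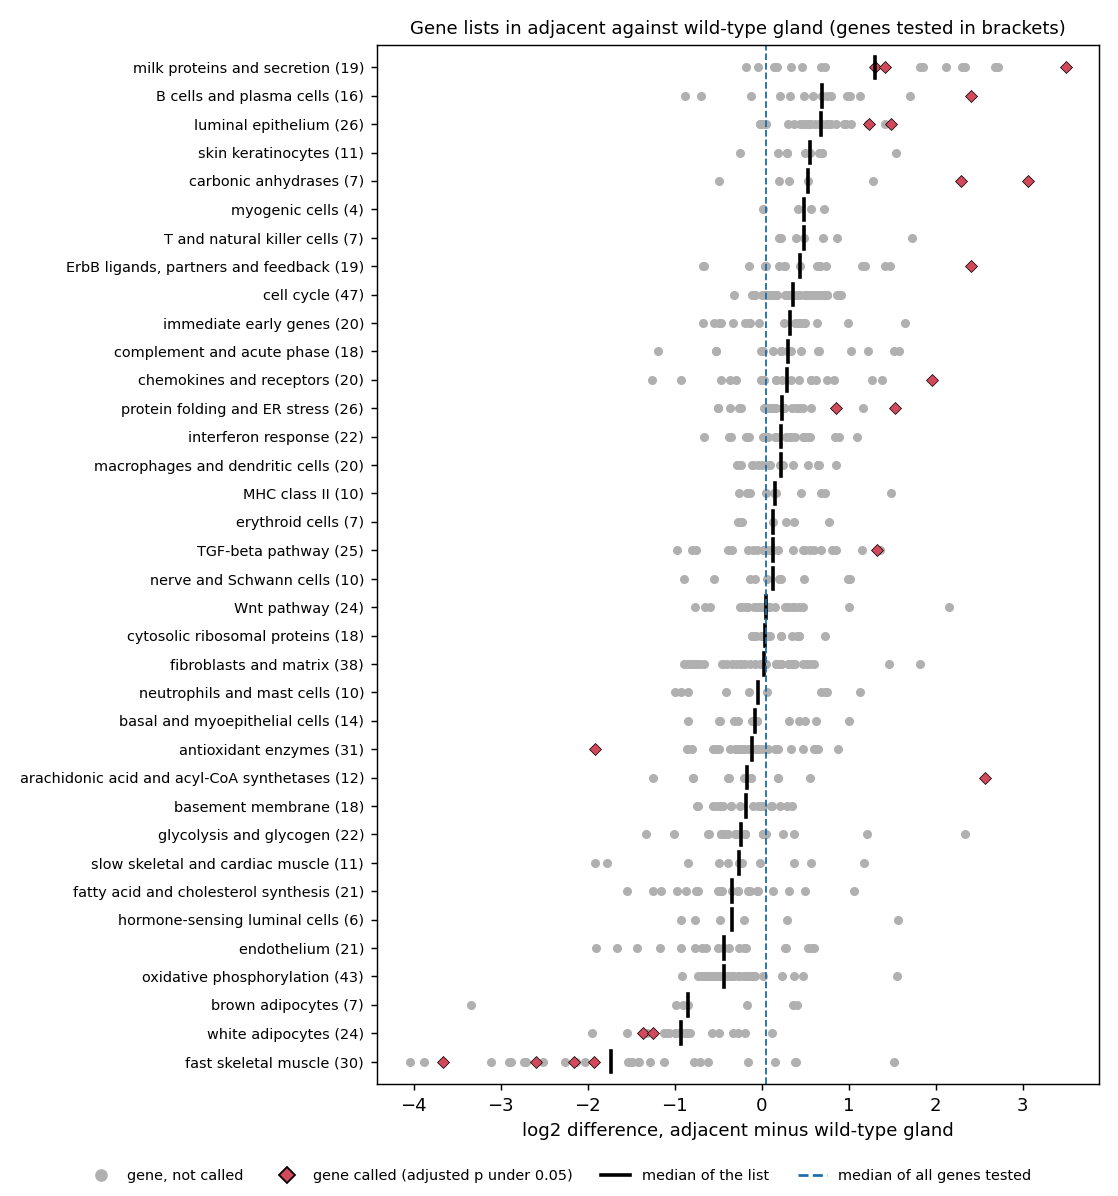
Log2 difference of adjacent minus wild-type gland for every gene tested of 36 lists, 1 row per list ordered by its median (black bar), with called genes as red diamonds and the dashed line at the median of all genes tested, 0.05. Fast muscle has the lowest median, -1.73, and milk genes the highest, 1.30, and single called genes lie at the outer edge of several rows.

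The 5 tumors, without the 2 of set B, were set beside adjacent gland for the called genes. This contrast shares the adjacent arrays with the first one, so values are given side by side and the comparisons do not support each other. In tumors against adjacent gland 962 of 6397 genes were called (15%), 368 higher (5.75%) and 594 lower (9.29%). Acsl4 had geometric means of 1046 in wild-type gland, 6175 in adjacent gland and 21030 in tumors, and tumors exceeded adjacent gland by 1.77 ± 0.25 (adjusted p = 1.29e-04). Tspan8 went from 308 to 1267 and 6019 (2.25 ± 0.42, adjusted p = 0.00143), and Tpd52l1 from 382 to 1129.5 and 4919.6 (2.12 ± 0.31, adjusted p = 2.08e-04). In these 3 genes the adjacent gland lay between the other groups. The rule for genes to name took them as called in both contrasts, so differing from both groups is no separate result.

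Other rises had levels in the 5 tumors close to those in adjacent gland. Xdh stood at 297, 3349.6 and 4087, and tumors differed from adjacent gland by 0.29 ± 0.56 (adjusted p = 0.811). Csn3 stood at 33113, 81689 and 97393 (0.25 ± 0.24, adjusted p = 0.577), and Cd82 at 2368, 6173 and 7623 (0.30 ± 0.17, adjusted p = 0.273). Bak1 stood at 966, 2564 and 2148 (-0.26 ± 0.23, adjusted p = 0.54). These differences were not called, which does not show that the levels were equal. The tumors of set B, outside this contrast, had geometric means of 7197.5 for Xdh, 46335 for Csn3, 8011.5 for Cd82 and 2050.5 for Bak1. Both read less Csn3 than any adjacent gland.

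Among the genes that fell, Ces1d went from 24534 in wild-type gland to 7945 in adjacent gland and was at the floor in every tumor (at least -6.29 ± 0.21, adjusted p = 3.01e-11). Cyp2e1 went from 42607 to 13745 and 1318 (-3.38 ± 0.21, adjusted p = 2.10e-08). Gpx3 stood at 42647, 11292 and 1740.5 (-2.70 ± 0.29, adjusted p = 1.01e-05). Echs1, by contrast, stood at 10269, 3569.6 and 2658, and tumors were not called against adjacent gland (-0.43 ± 0.23, adjusted p = 0.254). The white adipocyte list had a median of -0.93 in the first contrast and -2.53 in tumors against adjacent gland, and the milk list had 1.30 and -0.07.

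Array lot and group were in part confounded, so the calls were also read with lot as a fixed block. In that fit pool 40 is the only wild-type array that informs the contrast, and its adjusted p-values assume that pool 40 varies like the arrays of the other groups. Called both ways were Xdh (4.56 with the block, adjusted p = 0.0033), Acsl4 (2.34, adjusted p = 0.046), Plet1 (2.20, adjusted p = 0.0185), Cd82 (1.69, adjusted p = 0.0184) and Wfdc18 (1.82, adjusted p = 0.0213). Of the falls, Cyp2e1 kept the call (-2.05, adjusted p = 0.0173), as did the 4 muscle genes, of which Atp2a1 had -6.09 (adjusted p = 0.00452). Pool 40 was the highest pool in all 4. Cldn7, Dok1, Cxcl1, Bak1, Csrp1 and Chtf8 were the others. Of the rises kept, pool 40 was the lowest pool in Wfdc18, Cldn7, Dok1, Cxcl1 and Bak1. It was not the lowest in Xdh, Acsl4, Plet1, Cd82, Csrp1 and Chtf8. With lots 2004097 and 2004907 read as 1, the calls of Xdh, Plet1, Cd82, Wfdc18, Cyp2e1, Dok1, Cxcl1, Bak1 and Chtf8 remained. Acsl4 (adjusted p = 0.0532), Cldn7 (0.057), Csrp1 (0.0532) and the 4 muscle genes (0.051 to 0.0702) lost the call. Among the genes that lost the call with the lots as labelled were Dsg2 (1.04, adjusted p = 0.182), Csn3 (1.70, adjusted p = 0.0992), Cebpa (-0.96, adjusted p = 0.847), Ghr (-1.43, adjusted p = 0.44) and Gpx3 (-1.84, adjusted p = 0.389).

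**Figure D5:**
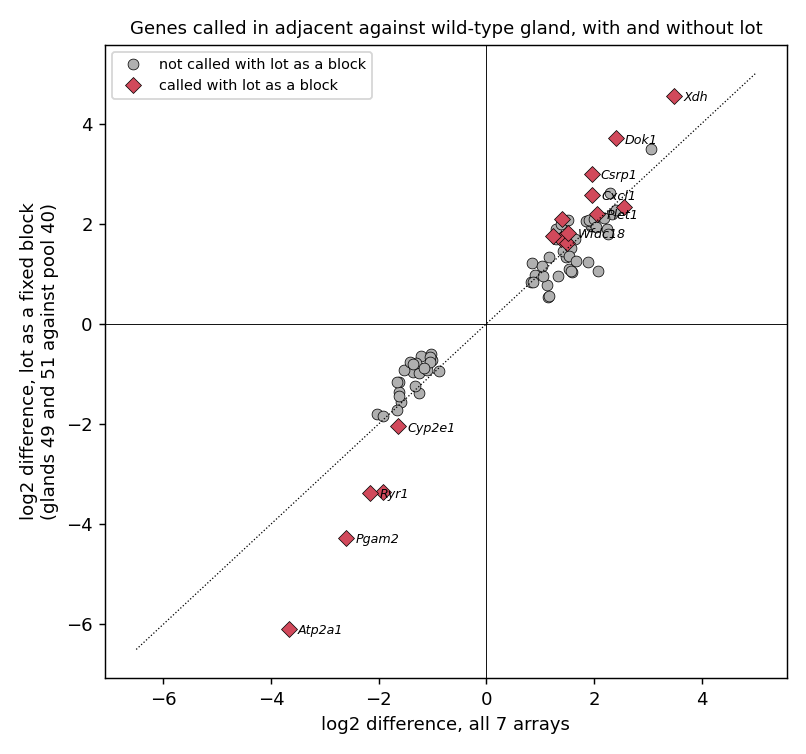
Log2 difference of adjacent minus wild-type gland for the 80 called genes, over all 7 arrays (x axis) and with array lot as a fixed block (y axis), with the 16 genes called both ways as red diamonds, some of them labelled, and the dotted line marking equal values. All 80 keep their sign, as genes without overlap between the groups must. The 4 muscle genes lie farther from 0 with the block, Atp2a1 at -6.09 against -3.67.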

How the data were processed

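RNA of 7 mouse mammary samples, part of a series of 14, was measured on 1-color arrays, 1 sample per array. The authors deposited 1 linear intensity per probe set, with the software not given in the sources used here. The 2%-trimmed mean was 1500.67 to 1500.9 on every array, so the intensities were taken as scaled and were not normalized again. A floor of 101.42 (20th percentile of all values) was applied before taking log2. A probe set had to lie above its array's 40th percentile on 3 or more arrays, which removed 3806, and 66 control probe sets were also left out.

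limma 3.58.1 in R 4.3.3 fitted the 4 groups of all 14 arrays together (lmFit, eBayes with an intensity trend), so that small groups share 1 spread, with 10 residual and 5.75 prior degrees of freedom. Tests are two-sided, with p-values adjusted by Benjamini and Hochberg over 8616 probe sets, and called under 0.05. Errors of log2 differences are standard errors. The number of arrays limits the precision, and the fit was tested on simulated data. Gene names came from the platform annotation (10855 with 1 gene, 396 with several and 1237 with none, the latter 2 kinds unnamed), and 10839 symbols were updated by gene number. The probe set with the highest mean stood for its gene. Of the 80 called genes 18 had several probe sets, and in Cavin1, Etfb and Itgb1bp1 another differed in the opposite direction. In Acsl4, Ces1d, Csrp1 and Folr1 every probe set tested was called. In Arf6, Atp2a1, Cd82, Cxcl1, Emid1, Ghr, Mid1ip1, P4hb, Rnf20, Sox4 and Tpd52 another had the same direction but was not called. Outside the 80, Rcc2, Ddx6, Ank3, Rhoa, Ccnd1 and Gnai1 each had a called probe set that did not stand for its gene. Of these, Gnai1 was lower in adjacent gland and the others higher.

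Genes were named by a rule: the 15 largest rises and 15 largest falls among calls without overlap, up to 4 called members of each of 36 lists (or 2 with the smallest p), and up to 6 per direction that were also called in tumors against adjacent gland. The comparison, the lists and the rule were chosen with earlier results of these data known. A fold against a group with arrays at the floor is a lower bound. Promoter sequences are from RefSeq (GRCm38.p6). Alternatives were array lot as a block, other floors, filters and normalizations, no trend, other sets of samples, and each array left out in turn.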

Additional observations from a re-analysis of the deposited data

Results flagged for a closer look

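In 8 of 128 genes tested, 1 adjacent gland stood apart from the other 3 by Dixon's gap test at the 95% level, where chance gives about 1 in 20. The count is close to that share, and no adjustment was made for the number of genes. Gland 49 was the highest in Dok1, at 1783.5, and in Trim46, at 2399.3, and the lowest in Pdgfra, at 3682.9. Gland 25 was the lowest in Ces1d, at 4790.3, and in Gstz1, at 10750.5. It was the highest in Rnf20, at 2244.9, and in the lymphocyte receptor gene Ly9, at 897.1. Gland 51 was the highest in Cpa3, a carboxypeptidase of mast cells, at 1313.1.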

How the results depend on the processing

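Every one of the 101 called probe sets that could be tested kept its direction in every alternative, and 94 of them passed the filter at the 60th percentile. Where the groups do not overlap, this was fixed in advance for fits on fewer arrays and for the block of lots as labelled. Counts of calls moved with the setting. A fit on the 2 groups alone called 28, 14 higher and 14 lower, and lot as a fixed block called 56, 32 higher and 24 lower. Lot as a random block called 24 lower, and a floor at the 30th percentile called 60 lower. With no filter on dim probe sets 53 were called, 24 of them higher. Median centring called 30 higher, and no intensity trend called 38 higher. Glands 23 and 25 alone against the 3 pools, an alternative added after seeing the data, called 292, 152 higher and 140 lower, and glands 49 and 51 alone called 100. With 1 array left out in turn, 14 to 200 probe sets were called, 12 to 100 higher and 2 to 100 lower, with the lowest counts without pool 42 and the highest without gland 51. With lots 2004097 and 2004907 read as 1 lot, also added after seeing the data, the fixed block called 26, 22 higher and 4 lower, and pool 40 alone as the wild-type called 3, with 3 higher and 0 lower. Tumors against adjacent gland called 1379 with lots read so, and 597 with lot as a fixed block as labelled, in place of 1239. Among genes that were not called, the sign turned with lot as a fixed block in Ucp1 (0.025), Cox8b (0.19), Tnnt1 (-0.56, or -0.34 with the lots read as 1) and Slc4a1 (-0.036). Slc4a1 also turned with glands 49 and 51 alone (-0.10), and ran from -0.000367 to 0.57 with 1 array left out. The causes were not tested. No paired analysis was possible because the 2 groups share no replicate number in the labels. The number of arrays and the signal over background limit dim genes most: 1.76% of tested values of the 7 arrays were at the floor.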

Other observations

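Several called genes belong to no list described so far. Chtf8, a part of the clamp loader of DNA replication, read 2816, 2844, 4258 and 4139.7 in glands 23, 25, 49 and 51 and 1372, 1355 and 969.9 in pools 40, 41 and 42, without overlap, and rose 2.83-fold (adjusted p = 0.0118, or 0.0731 without pool 42 in limma). Rraga, a GTPase that reports amino acids to the growth regulator mTOR, read 3472, 1995, 3807 and 4358 against 1025, 1668 and 1139.9 and rose by 1.39 ± 0.29 (adjusted p = 0.0324, or 0.0535 to 0.145 without pool 40, 41 or 42 or gland 23 or 49). Mthfd2, a mitochondrial enzyme of folate metabolism, read 1306, 3417, 1586 and 1345 against 508, 689 and 581. Gland 25 was the highest in Mthfd2, which rose by 1.58 ± 0.36 (adjusted p = 0.0442, or 0.0647 to 0.184 without pool 40, 41 or 42 or gland 25 or 49). Csrp1, a LIM domain protein, read 5969, 1901, 8576 and 8809.8 against 1091, 2382 and 1032. Gland 25 lay under pool 41, and Csrp1 rose by 1.96 ± 0.44 (adjusted p = 0.0421, or 0.0509 to 0.233 without pool 40, 41 or 42 or gland 23, 49 or 51). These genes were chosen after their values were seen.

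Glycosyltransferases moved in both directions. Galnt10, which starts O-linked sugar chains of mucins, read 1326, 1120.4, 2007 and 1564 against 476, 790.1 and 571 and rose by 1.29 ± 0.29 (adjusted p = 0.0458, or 0.0554 to 0.199 without pool 40, 41 or 42 or gland 23, 49 or 51). The galactosyltransferase gene B3galt2 read 804, 231, 423 and 751 against 1971, 2665 and 1571 and fell by 2.04 ± 0.42 (adjusted p = 0.0313, or 0.0828 to 0.164 without pool 40, 41 or 42 or gland 49). The sialyltransferase gene St6galnac5 read 514, 705, 329.6 and 807 against 1705, 2182 and 1469 and fell by 1.66 ± 0.37 (adjusted p = 0.0421, or 0.0803 to 0.194 without pool 40, 41 or 42 or gland 23 or 49). In both genes that fell, no gland overlapped the pools. Galnt10 was chosen after its values were seen.

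Some genes came close to a call. Aldoc, the brain form of aldolase, read 20670.4, 3499, 44997 and 11896 against 2935, 3518 and 2065. Gland 25 was within the range of the pools while gland 49 stood far above them (2.34 ± 0.56, adjusted p = 0.0525). The hexokinase gene Hk2 read 2779, 1868, 3036 and 3635 against 6221, 6428 and 8299.8, and every gland was under every pool (-1.33 ± 0.32, adjusted p = 0.0568). Ier3, an immediate early gene, read 7815, 2137, 10352 and 3345 against 1556, 1588 and 1552. The pools were nearly equal, glands 23 and 49 were the highest, and the difference was 1.65 ± 0.44 (adjusted p = 0.0791).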
